A study of Homo sapiens with 6 samples.

Results

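The genes described here are 9 transcriptional targets of p53 that were set apart from the ATF4 stress response: *MDM2*, *ZMAT3*, *TP53INP1*, *BBC3*, *FDXR*, *XPC*, *DDB2*, *PHLDA3* and *FAS*. They were chosen by name from the 58735 genes of the deposited tables, each name matched 1 gene, and all 9 had enough reads to be tested. The measurements are bulk RNA sequencing of H2452, a line established from pleural mesothelioma (PM) and grown in RPMI-1640 medium with serum, in 3 sgCtrl libraries with the genotype label WT and 3 sg*NF2*-1 libraries with the label NF2-KO. Both populations had received a lentivirus carrying Cas9, mCherry and either a scrambled sgRNA or one sgRNA against *NF2*, and were sorted as mCherry-positive cells. With a single *NF2* sgRNA, the loss of *NF2* and any other effect of that sgRNA cannot be told apart, and the labels do not say whether the 3 libraries of a group came from separate cultures, although the study's statistical methods call its replicates in general biological, so p-values measure the spread between these libraries.

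p53 is a transcription factor that is held low by the ubiquitin ligase MDM2 and is stabilised when DNA is damaged or cells are under other stress. It binds DNA at paired copies of a decamer and raises genes of cell cycle arrest, DNA repair and apoptosis, together with *MDM2* itself, so that MDM2 levels are often read as an output of p53. ATF4 is the transcription factor of the integrated stress response, in which phosphorylation of eIF2 lowers general translation but raises ATF4 protein. Some stress genes, among them *GDF15*, *SESN2* and *ATF3*, can be raised by either factor. The comparison asked whether p53 targets set apart from the ATF4 response moved together with them. Whether these targets respond to p53 alone was not tested. *BBC3* is less clearly separate than the others, since it is known to respond also to CHOP, the product of the ATF4 target *DDIT3*.

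Total counts ranged from 14782423 to 17416463 per library. *NF2*, the targeted gene, was at 73.7, 72.9 and 67.5 CPM (the read count scaled to a common library size after TMM adjustment) in sgCtrl replicates 1 to 3 and at 39.3, 52.0 and 41.4 CPM in sg*NF2*-1 replicates 1 to 3. Of 10 mesothelial markers 9 were tested, and 3 were higher and 3 lower in sg*NF2*-1. These are 66.7% of the 9, beside 34.3% of all tested genes. In log2 fold change (edgeR), *MSLN*, *BNC1* and *KRT18* were higher, at 0.66, 0.54 and 0.28. *PDPN*, *WT1* and *KRT19* were lower, at -1.28, -1.04 and -0.94. The summed level of the 10 was 3315 to 3728 CPM in sgCtrl and 2940 to 3575 CPM in sg*NF2*-1. Most of it came from *KRT8* and *KRT18* (means of 1961 and 797 CPM in sgCtrl), so the sum does not follow the other markers. Of 8 markers of leukocytes, endothelium, carcinoma epithelium and muscle, 3 were tested, of which the endothelial gene *PECAM1* was lower. The summed level of the 8 was 16.7 to 21.6 CPM in sgCtrl and 15.1 to 18.1 CPM in sg*NF2*-1, with the leukocyte gene *PTPRC* at 0 in every library, and the part of these markers in the results below was not tested. In bulk samples of a cell line, fewer cells that express a gene and less of its RNA per cell cannot be told apart.

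The regulatory sequence near the transcription start was examined for the motifs of both factors. RefSeq windows of 300 bases, 250 before and 50 after the start (build GRCh38.p14), were found for 7 of the 9 genes, *TP53INP1* and *PHLDA3* being the others. Among 34796 windows with distinct sequences, 6.65% held a match to the p53 consensus decamer, and 10 windows (0.0287%) held a pair of decamers at most 13 bases apart. Matches to the ATF4 motif TGATGNAAN, read on both strands, were in 3.63% of windows. Of the 7 genes, *DDB2*, *FDXR* and *FAS* had a decamer in a window and *DDB2* alone had a pair, while none had the ATF4 motif. The 7 genes had 15 windows between them, so this count of genes is not on the scale of the shares of windows above. *MDM2*, *ZMAT3*, *BBC3* and *XPC* had neither in their windows, which says only that these letters are not there. The windows of *DDB2* (chr11:47214724-47215023, plus strand), *FDXR* (chr17:74872945-74873244, minus strand) and *FAS* (chr10:88991181-88991480, plus strand) are printed because they carry the p53 decamer, shown in capitals.
DDB2: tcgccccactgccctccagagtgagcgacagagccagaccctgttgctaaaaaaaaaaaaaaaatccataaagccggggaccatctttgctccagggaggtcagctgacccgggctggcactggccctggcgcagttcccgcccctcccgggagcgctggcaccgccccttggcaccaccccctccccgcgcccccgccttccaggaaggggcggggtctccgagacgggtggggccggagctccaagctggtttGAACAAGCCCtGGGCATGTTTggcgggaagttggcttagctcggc
FDXR: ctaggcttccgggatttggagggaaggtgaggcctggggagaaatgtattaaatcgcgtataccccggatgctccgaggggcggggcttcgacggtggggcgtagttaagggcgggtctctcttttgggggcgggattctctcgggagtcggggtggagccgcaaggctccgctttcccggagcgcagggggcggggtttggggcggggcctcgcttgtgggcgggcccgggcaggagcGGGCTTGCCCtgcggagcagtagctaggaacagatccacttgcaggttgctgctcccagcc
FAS: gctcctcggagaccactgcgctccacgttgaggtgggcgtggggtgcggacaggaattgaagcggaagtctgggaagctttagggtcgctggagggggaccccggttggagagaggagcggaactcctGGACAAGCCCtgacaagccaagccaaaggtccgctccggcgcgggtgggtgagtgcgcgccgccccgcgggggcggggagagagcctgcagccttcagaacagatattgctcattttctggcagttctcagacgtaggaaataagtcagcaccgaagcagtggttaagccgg
Counted from the start site, the 2 decamers of *DDB2* begin at bases 6 and 17, and those of *FDXR* and *FAS* begin at bases -11 and -122. Among genes with windows, the ATF4 motif was found for 1 of 5 open to both factors and for 3 of 13 on the ATF4 list. It was also found for 1 of 33 in the wider list of other p53 targets described below, *PLK3*. Of the other lists, it was found for 1 of 11 cell cycle genes and for none of 16 p53 circuit genes or 5 mesothelial markers. The gene open to both factors is *ATF3*, of which a window (chr1:212565157-212565456, plus strand) holds the motif, shown in capitals, from base -191 on.
ATF3: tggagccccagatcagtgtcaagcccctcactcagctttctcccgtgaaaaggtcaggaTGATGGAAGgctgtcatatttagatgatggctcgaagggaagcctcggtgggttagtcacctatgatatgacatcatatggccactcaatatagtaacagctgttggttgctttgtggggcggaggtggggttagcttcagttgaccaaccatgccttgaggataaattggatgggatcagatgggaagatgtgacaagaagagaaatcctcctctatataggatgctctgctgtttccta
The 3 genes with a p53 decamer in a printed window were all among those that did not pass the test below. In the wider list of other p53 targets, 5 of 33 genes with windows had a decamer. Of these, *AEN* rose (log2 fold change 0.87, edgeR), and the others did not pass or were not tested. A decamer was also found for 1 of 11 cell cycle genes and 1 of 5 mesothelial markers. It was found for none of 16 p53 circuit genes, 13 on the ATF4 list or 5 open to both factors. Whether the decamer and the change go together was not tested. *GDF15* and *SESN2* had neither motif in their windows.

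Across the 9 p53 targets, sg*NF2*-1 cells showed no common direction. *BBC3* and *XPC* rose, *TP53INP1*, *PHLDA3* and *ZMAT3* fell, and *MDM2*, *FAS*, *DDB2* and *FDXR* did not pass the threshold (edgeR's quasi-likelihood test, Benjamini-Hochberg adjusted p under 0.05 over 14179 genes). The 2 higher genes stand beside 17.7% of all tested genes called higher, and the 3 lower genes beside 16.6% called lower, so that 5 of 9 compares with 34.3% in either direction. With DESeq2, with unadjusted library totals, or without sgCtrl replicate 2 or 3 or sg*NF2*-1 replicate 1 or 2, the number of higher genes was 1, *BBC3*. The median log2 fold change of the 9 was -0.12 against -0.0025 for all tested genes. Groups did not overlap for 5 of the 9, the same genes that passed, and for 45.3% of all tested genes. With an unadjusted p under 0.05 and a change of more than 0.5 on the log2 scale required, *BBC3* alone was higher (9.22% of all genes) and *ZMAT3*, *TP53INP1* and *PHLDA3* were lower (10.8% of all genes), which makes 4 of 9 beside 20.0% in either direction. The summed level of the 9 genes was 106.3 to 111.8 CPM in sgCtrl and 110.9 to 113.9 CPM in sg*NF2*-1, and these ranges overlapped.

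**Figure D1:**
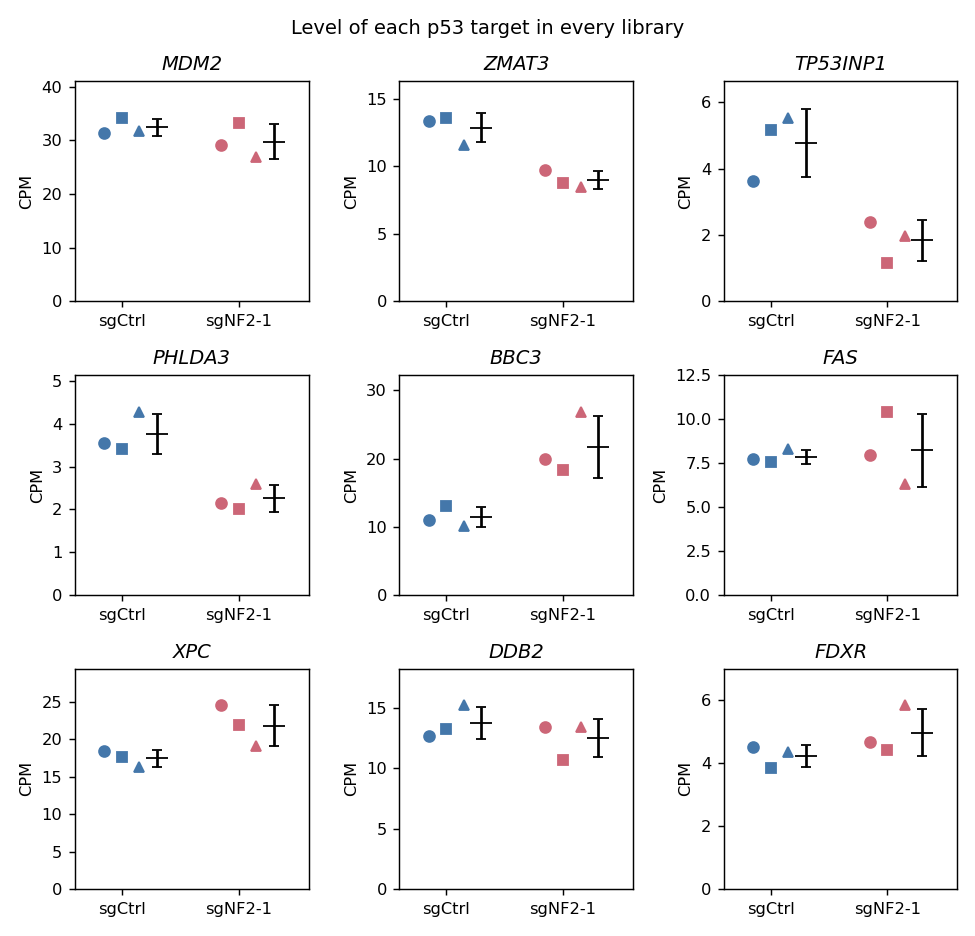
Level of each of the 9 p53 targets in CPM (vertical axes from 0) in the 3 sgCtrl libraries (blue) and 3 sgNF2-1 libraries (red). Circles, squares and triangles are replicates 1, 2 and 3, and the black bar is the mean with its SD. The groups do not overlap for ZMAT3, TP53INP1, PHLDA3, BBC3 and XPC, of which BBC3 and XPC are higher in sgNF2-1.

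*MDM2* (ENSG00000135679, chromosome 12 of GRCh38, 68808176 to 68850686, plus strand) encodes the ligase that ubiquitinates p53. It was at 31.3, 34.2 and 31.7 CPM in sgCtrl replicates 1 to 3 and at 29.2, 33.2 and 26.8 CPM in sg*NF2*-1 replicates 1 to 3. The sg*NF2*-1 replicate 2 library lay within the range of the sgCtrl libraries, so the groups overlapped. The log2 fold change was -0.12 with a 95% interval of -0.35 to 0.10 (adjusted p = 0.40, edgeR), and it ranged from -0.21 to -0.05 when each library was left out. Over the 6 libraries, the tested genes whose centred log2 level lay closest to that of *MDM2*, among 13137 with a mean of at least 1 CPM, were *AREL1*, *FMR1* and *ARHGAP12* (root mean square differences 0.021, 0.030 and 0.030). None of these 3 was on the lists of p53 targets used here.

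*TP53INP1* (ENSG00000164938, chromosome 8, 94925972 to 94949411), whose product helps p53 to raise apoptotic genes, was at 3.62, 5.18 and 5.54 CPM in sgCtrl replicates 1 to 3 and at 2.39, 1.17 and 1.97 CPM in sg*NF2*-1 replicates 1 to 3. No sg*NF2*-1 library reached the lowest sgCtrl library. They held 42, 18 and 28 counts of the gene, against 57, 85 and 84 in sgCtrl, so the values are less precise than those of *MDM2*. The mean fell from 4.78 ± 1.02 to 1.84 ± 0.620 CPM (SD, n = 3 each), or -1.36 ± 0.28 (SE) in log2 fold change (edgeR adjusted p = 0.00041). The gene overlaps *NDUFAF6* on the opposite strand, which had a mean of 86.7 counts in sgCtrl and 102.3 in sg*NF2*-1, and the library kit as named does not mark strand.

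*PHLDA3* (ENSG00000174307, chromosome 1, 201464383 to 201469237) encodes a protein that keeps the kinase AKT from the membrane. Its level was 3.55, 3.41 and 4.28 CPM in sgCtrl replicates 1 to 3 and 2.16, 2.01 and 2.60 CPM in sg*NF2*-1 replicates 1 to 3. Every sg*NF2*-1 value was lower than every sgCtrl value, the closest being 2.60 and 3.41 CPM. The log2 fold change was -0.73 ± 0.25 (SE), with an edgeR adjusted p of 0.026. Without sgCtrl replicate 3, sg*NF2*-1 replicate 1 or sg*NF2*-1 replicate 2 the call was lost, with edgeR adjusted p-values of 0.089, 0.080 and 0.094.

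*ZMAT3* (ENSG00000172667, chromosome 3, 179017223 to 179072279) encodes an RNA-binding protein that acts on splicing and on the stability of transcripts. It was at 13.3, 13.6 and 11.6 CPM in sgCtrl replicates 1 to 3 and at 9.72, 8.75 and 8.50 CPM in sg*NF2*-1 replicates 1 to 3, again without overlap. The mean of sg*NF2*-1 was 70.0% of that of sgCtrl, or -0.51 ± 0.14 (SE) in log2 fold change (edgeR adjusted p = 0.0070). For *ZMAT3*, *TP53INP1*, *PHLDA3*, *BBC3* and *XPC* alike, a two-sided exact permutation test of the CPM gave p = 0.10, the smallest that 3 libraries against 3 allow.

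*BBC3* (ENSG00000105327, chromosome 19, 47220822 to 47232766), which encodes the BH3-only protein PUMA, was at 11.0, 13.04 and 10.1 CPM in sgCtrl replicates 1 to 3 and at 19.9, 18.3 and 26.9 CPM in sg*NF2*-1 replicates 1 to 3. The groups were well apart, and the sg*NF2*-1 replicate 3 library was the highest. The sgCtrl mean of 11.4 ± 1.48 and the sg*NF2*-1 mean of 21.7 ± 4.58 CPM (SD, n = 3) differed by 0.92 ± 0.15 (SE) in log2 fold change (edgeR adjusted p = 2.6e-05). *FAS* (ENSG00000026103, chromosome 10, 88990582 to 89015785), a death receptor at the cell surface, was at 7.74, 7.55 and 8.30 CPM in sgCtrl replicates 1 to 3 and at 7.96, 10.4 and 6.32 CPM in sg*NF2*-1 replicates 1 to 3. Its sg*NF2*-1 libraries lay on both sides of the sgCtrl libraries and varied more, with a coefficient of variation of 25.1% against 4.96%. The log2 fold change of *FAS* was 0.07 with a 95% interval of -0.30 to 0.43 (adjusted p = 0.80, edgeR), and it was -0.13 without sg*NF2*-1 replicate 2. *FAS* overlaps *ACTA2* on the opposite strand, which had a mean of 14.3 counts in both groups.

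The DNA repair genes *XPC* and *DDB2* encode proteins that recognise damaged bases for nucleotide excision repair. *XPC* (ENSG00000154767, chromosome 3, 14145147 to 14178783) was at 18.5, 17.7 and 16.3 CPM in sgCtrl replicates 1 to 3 and at 24.6, 21.9 and 19.1 CPM in sg*NF2*-1 replicates 1 to 3. The groups did not overlap, but the lowest sg*NF2*-1 library exceeded the highest sgCtrl library by little. The log2 fold change was 0.33 ± 0.12 (SE), with an edgeR adjusted p of 0.043, and the call was lost in 6 of 12 alternatives. DESeq2 gave an adjusted p of 0.057, and leaving out sg*NF2*-1 replicate 1, sgCtrl replicate 2, sgCtrl replicate 3 or sg*NF2*-1 replicate 2 gave 0.22, 0.088, 0.11 and 0.086 in edgeR. *XPC* overlaps *LSM3* on the opposite strand, which had a mean of 470.3 counts in sgCtrl and 393.3 in sg*NF2*-1.

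*DDB2* (ENSG00000134574, chromosome 11, 47214465 to 47239240), the gene with the paired decamers printed above, was at 12.7, 13.3 and 15.2 CPM in sgCtrl replicates 1 to 3 and at 13.4, 10.7 and 13.4 CPM in sg*NF2*-1 replicates 1 to 3. These values overlapped, with a log2 fold change of -0.13 and a 95% interval of -0.42 to 0.15 (adjusted p = 0.49, edgeR), and from -0.19 to -0.03 when each library was left out. *FDXR* (ENSG00000161513, chromosome 17, 74862497 to 74873031) encodes ferredoxin reductase, which passes electrons to mitochondrial cytochrome P450 enzymes. It was at 4.50, 3.84 and 4.35 CPM in sgCtrl replicates 1 to 3 and at 4.66, 4.41 and 5.83 CPM in sg*NF2*-1 replicates 1 to 3. The groups overlapped, with a log2 fold change of 0.23 and a 95% interval of -0.20 to 0.65 (adjusted p = 0.43, edgeR), and the change was 0.11 to 0.31 when each library was left out.

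Per gene length, the levels of the 9 genes in sgCtrl spanned 3.45 ± 0.222 FPKM for *XPC* to 0.798 ± 0.170 FPKM for *TP53INP1* (SD, n = 3). In descending order they were *XPC*, *BBC3*, *DDB2*, *MDM2*, *FAS*, *ZMAT3*, *PHLDA3*, *FDXR* and *TP53INP1*. The sgCtrl values of *XPC* and *BBC3* overlapped, as did those of *ZMAT3* and *PHLDA3* and those of *PHLDA3* and *FDXR*. In sg*NF2*-1, *BBC3* stood first at 6.40 ± 1.34 FPKM and *TP53INP1* last at 0.304 ± 0.102 FPKM (SD, n = 3). With limma on log2(FPKM + 1), 1 of the 9 was higher (*BBC3*) and 3 were lower (*ZMAT3*, *TP53INP1* and *PHLDA3*) at an adjusted p under 0.05, beside 26.8% of 13038 genes in either direction. *XPC* did not pass on this scale (difference 0.24, adjusted p = 0.099, limma), and the call of *ZMAT3* (difference -0.27, adjusted p = 0.031, limma) was lost in 6 of 9 alternatives, the replicate block and each library left out except sgCtrl replicate 3.

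**Figure D2:**
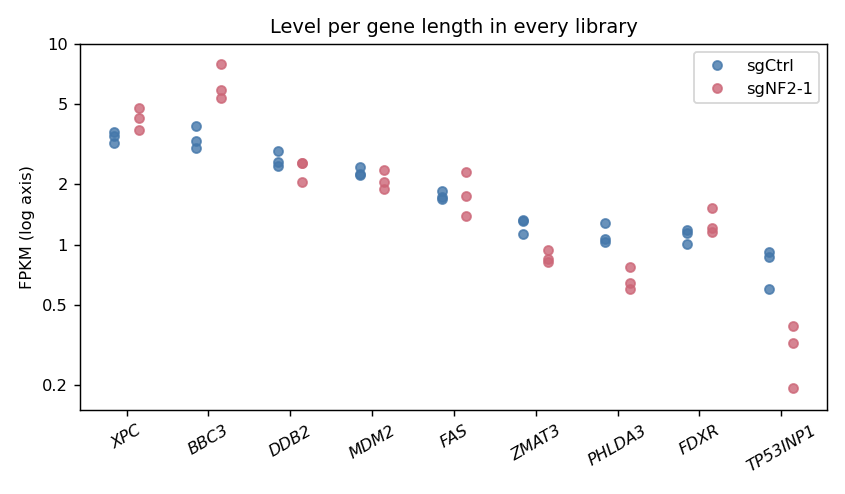
Level per gene length (FPKM, log axis) of the 9 p53 targets in each sgCtrl library (blue) and sgNF2-1 library (red), ordered by the sgCtrl mean. BBC3 moves from a mean of 3.40 to 6.40 FPKM and TP53INP1 from 0.798 to 0.304 FPKM.

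The genes that can respond to both factors moved in 1 direction where they passed. Of 7 such genes, 6 rose and none fell, beside 17.7% higher and 16.6% lower over all tested genes, with a median log2 fold change of 0.74. *GDF15*, a secreted stress cytokine, was at 27.2, 22.6 and 23.9 CPM in sgCtrl replicates 1 to 3 and at 115.3, 136.4 and 123.9 CPM in sg*NF2*-1 replicates 1 to 3. *SESN2*, which restrains mTORC1 when amino acids are scarce, was at 30.6, 34.5 and 31.2 CPM in sgCtrl and at 119.9, 123.2 and 124.4 CPM in sg*NF2*-1. Both sets of libraries were far apart, and the log2 fold change was 2.35 ± 0.10 (SE) for *GDF15* and 1.93 ± 0.09 (SE) for *SESN2*, with edgeR adjusted p-values of 5.0e-15 and 3.0e-14. The 95% interval of each, from 2.15 to 2.55 for *GDF15* and from 1.75 to 2.11 for *SESN2*, lay above the upper bound of every one of the 9 p53 targets, of which the highest was 1.22 for *BBC3*. In the wider list of other p53 targets, the intervals of *CYFIP2* (1.34 to 2.43) and *EDA2R* (0.59 to 2.10) overlapped that of *SESN2*, and the other tested genes stayed below it. The interval of *CYFIP2* also overlapped that of *GDF15*. The 9 genes and the lists were chosen with earlier results of these data known. *ATF3*, a transcription factor of the stress response, rose by 2.33 and *GADD45A*, an arrest gene, by 0.74 on the log2 scale (edgeR adjusted p = 4.5e-14 and 3.9e-07). *TNFRSF10B*, a receptor of TRAIL, and *PMAIP1*, which encodes NOXA, rose by 0.27 and 0.22 (edgeR adjusted p = 0.016 and 0.040), and *DDIT4*, an inhibitor of mTORC1, was at -0.01 (edgeR adjusted p = 0.95). The call of *PMAIP1* was lost in 6 of 12 alternatives, among them those without sgCtrl replicate 1 or 2 or sg*NF2*-1 replicate 1 or 2 (edgeR adjusted p = 0.074 to 0.16), and that of *TNFRSF10B* without sgCtrl replicate 1 or sg*NF2*-1 replicate 2 (edgeR adjusted p = 0.091 and 0.085). *ATF4* and 14 of its targets gave 11 higher and 1 lower of 15, with a median of 0.62, among them *CHAC1* at 2.05, *TRIB3* at 1.88, the serine synthesis genes *PHGDH* at 1.31 and *PSAT1* at 1.27 and, as the lower one, *VLDLR* at -0.34, which was not called without sgCtrl replicate 2 or sg*NF2*-1 replicate 1. *DDIT3*, the gene of CHOP, was at 0.95 and *ATF4* itself at 0.56 (edgeR adjusted p = 8.7e-08 and 1.4e-05). Whether CHOP acted on *BBC3* in these cells was not tested.

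A wider list of 41 other p53 targets, of which 35 had enough reads to be tested, had 8 genes called higher and 8 called lower, with a median log2 fold change of -0.12. Together these are 45.7% of the 35, beside 34.3% of all tested genes in either direction (17.7% higher and 16.6% lower). *CDKN1A*, which encodes the cell cycle inhibitor p21, was at 14.5, 17.6 and 18.3 CPM in sgCtrl replicates 1 to 3 and at 18.6, 20.5 and 24.7 CPM in sg*NF2*-1 replicates 1 to 3. The highest sgCtrl library (18.3) and the lowest sg*NF2*-1 library (18.6) nearly met, and the log2 fold change was 0.34 ± 0.13 (SE), with an edgeR adjusted p of 0.049, a call that 8 of 12 alternatives did not keep, among them DESeq2 (adjusted p = 0.068) and the fits without sgCtrl replicate 1 or 2 or sg*NF2*-1 replicate 2 or 3 (edgeR adjusted p = 0.21, 0.066, 0.065 and 0.23). The largest increases in this list were those of *CYFIP2*, a regulator of actin assembly (1.89), *EDA2R*, a receptor of the TNF family (1.34), *AEN*, an apoptotic nuclease (0.87), and *PLK3*, a stress kinase (0.53). *EDA2R* and *CYFIP2* were low, at 0.847 and 1.24 CPM in sgCtrl. The largest decreases were those of *TRIM22*, an interferon-inducible ligase (-1.15), *APAF1*, the core of the apoptosome (-0.96), *CD82*, a tetraspanin (-0.84), and *TM7SF3*, a membrane protein (-0.79). The largest edgeR adjusted p among these 8 genes was 0.0060, that of *EDA2R*, which was 0.055 without sg*NF2*-1 replicate 3. Without sgCtrl replicate 2, 5 genes of this list were called higher.

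Of 17 genes of the circuit that controls p53, 14 were tested, and 1 was higher and 4 were lower, a share of 35.7% that is near the 34.3% called over all tested genes. *MDM4*, which encodes the MDM2 partner that blocks p53, was at 0.03, with an interval of -0.22 to 0.28, and *PPM1D*, a phosphatase that acts on p53 and ATM, at 0.0022, with an interval of -0.29 to 0.29. The damage kinases *ATM* and *ATR* fell by 0.41 and 0.36, the p53-binding damage mediator *TP53BP1* fell by 0.47 and the p53 kinase *HIPK2* fell by 0.57 on the log2 scale (edgeR adjusted p = 0.0014, 0.013, 0.00037 and 4.5e-05), the call of *ATR* being lost without sgCtrl replicate 2 or sg*NF2*-1 replicate 3 (edgeR adjusted p = 0.075 and 0.060). *PPP1R13L*, which encodes the p53 inhibitor iASPP, rose. The sgCtrl libraries averaged 23.4 ± 1.51 CPM, against 45.9 ± 4.10 CPM (SD, n = 3) for sg*NF2*-1, or 0.97 ± 0.11 (SE) in log2 fold change (edgeR adjusted p = 1.0e-07). *CDKN2A*, whose alternative product p14ARF inhibits MDM2, had 0 counts in all 6 libraries, which allows a level of up to 0.172 to 0.203 CPM, a limit for counting error only.

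**Figure D3:**
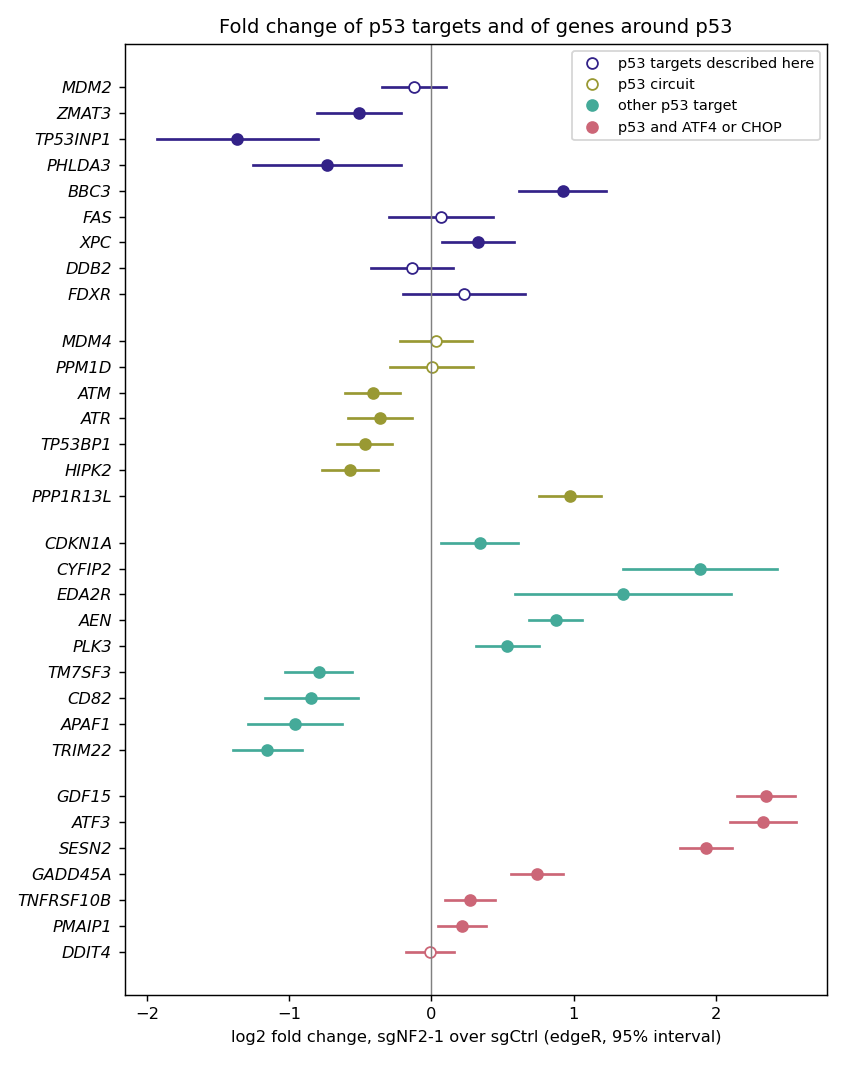
Log2 fold change (sgNF2-1 over sgCtrl, edgeR) with its 95% interval for the 9 p53 targets, genes of the p53 circuit, other p53 targets and genes open to both p53 and ATF4 or CHOP. Filled points have an adjusted p under 0.05. The intervals of GDF15, ATF3 and SESN2 lie above those of all 9 p53 targets, of which MDM2, FAS, DDB2 and FDXR have intervals that include 0. Among the other p53 targets, the interval of CYFIP2 overlaps those of GDF15, ATF3 and SESN2, and that of EDA2R overlaps those of ATF3 and SESN2.

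Of 15 cell cycle genes that p53 is known to lower through p21, 1 was higher and 5 were lower in sg*NF2*-1, with a median log2 fold change of -0.09. These are 40.0% of the list, beside 34.3% of all tested genes. The number of lower genes was 3 without sgCtrl replicate 3 or sg*NF2*-1 replicate 3. The transcripts were measured as amounts per gene, so neither the level nor the activity of the p53 protein was observed.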

How the data were processed

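RNA was measured in 3 sgCtrl and 3 sg*NF2*-1 libraries of H2452 cells. Sample titles gave the group and the replicate number. The authors used the NEBNext Ultra kit, which does not mark strand, and deposited gene-level raw counts and FPKM values. The submitters' processing notes name HISAT2, StringTie 1.3.3b, featureCounts 1.5.0-p3 and hg38. The strand setting is not given in the sources used here. All 58735 identifiers are in GENCODE release 29 with the same start and end.

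Counts were analysed in R 4.3.3 with edgeR 4.0.16. Genes were filtered with filterByExpr (minimum count 10, minimum total 15), normalized by TMM and tested by quasi-likelihood with group as the single term and Benjamini-Hochberg adjustment over 14179 genes. Standard errors are the fold change over the root of the F statistic, and 95% intervals use its degrees of freedom. Deposited FPKM values were tested with limma 3.58.1 on log2(FPKM + 1), a scale that understates low genes, for 13038 genes whose mean reached 0.5 FPKM. Alternatives were DESeq2 1.42.0, other scalings, filters and thresholds, a replicate block and leaving out each library. The procedures were tried on simulated counts with 200 changed genes. In the data 4866 genes were called, so the simulation does not show how they perform where so many genes change. The precision of a value is limited by its count, and intervals cover these libraries only.

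The 9 genes and the lists (p53 circuit, other p53 targets, targets open to both factors, ATF4 targets, cell cycle genes, mesothelial and other markers) were chosen with earlier results of these data known, so no list was tested as a set. Named genes are the 9, *NF2*, *MDM4*, *PPM1D*, *CDKN1A*, all genes open to both factors, up to 4 genes per direction with the largest change in the circuit, other-target and ATF4 lists (adjusted p under 0.05, mean of at least 1 CPM, no overlap) and the 3 genes closest to *MDM2* on log2(CPM + 0.5). *CDKN2A*, *ATF4*, *DDIT3*, the cell type markers and the overlapping genes were named after their values were seen. Motifs were searched in RefSeq windows on both strands.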

Additional observations from a re-analysis of the deposited data

How the results depend on the processing

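The calls of *BBC3*, *TP53INP1* and *ZMAT3* in edgeR held in all 12 alternatives of the count test. That of *XPC* was lost with DESeq2 (0.32), with library totals (0.30) and without 4 of the libraries, its log2 fold change ranging from 0.24 to 0.42 when each library was left out. That of *PHLDA3* was lost without 3 libraries (-0.84 to -0.63), and the direction of *FAS* turned without sg*NF2*-1 replicate 2 (-0.13 to 0.23). The number of higher genes among the 9 was therefore 1 with DESeq2, with library totals and with the fold limit, and 1 to 2 when each library was left out, while the number of lower genes was 2 to 3. With the fold limit on unadjusted p, 1308 genes were higher and 1531 lower over all tested genes. Leaving out each library gave 5 to 8 higher genes among the other p53 targets, 0 to 1 lower among the ATF4 list and 3 to 5 lower among the cell cycle genes. Of the genes near 0, *MDM4* ranged from -0.11 to 0.18, *PPM1D* from -0.062 to 0.083 and *DDIT4* from -0.050 to 0.019 over the libraries left out. *PPM1D* was also -0.00045 with DESeq2, -0.00058 with its size factors, -0.026 with library totals and -0.0053 with at least 10 counts in every library, and *DDIT4* was 0.0065 with no filter. On log2(FPKM + 1), leaving out each library gave -0.31 to -0.25 for *ZMAT3*, -0.54 to -0.40 for *TP53INP1* (4 libraries only, since its mean was under 0.5 FPKM without sgCtrl replicate 2 or 3 and it was then not tested), -0.39 to -0.29 for *PHLDA3* (calls lost in some), 0.17 to 0.32 for *XPC* (passed without sg*NF2*-1 replicate 3) and -0.10 to 0.13 for *FAS*. The call of *TP53INP1* on this scale was lost in 1 of its 4 fits (limma adjusted p = 0.052). Replicate numbers did not pair the libraries, since same-numbered ones had correlations of -0.032, 0.057 and 0.050 between their deviations from the group means, and not every library correlated best with its own number. A replicate block left 2 higher and 3 lower of the 9 genes on counts, gave *PPM1D* as -0.0011, and ended the call of *ZMAT3* on FPKM (-0.27, limma adjusted p = 0.052). The cause of these shifts was not tested.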
